A study of Mus musculus with 4 samples.

Results

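Amino acid and neurotransmitter transporters of the solute carrier families Slc1, Slc6, Slc7, Slc17, Slc18 and Slc32 were followed through the gene lists of 4 single-cell RNA sequencing libraries of fetal mouse pancreas. Members were the genes whose symbol is one of these 6 family names followed by a and a number. The annotation holds 54 of them, all protein-coding, and 53 were in at least 1 of the 3 complete lists. The genes were chosen by symbol, but the set was proposed with their listing in view, so the listing is given as a description. Slc6a20a, Slc6a20b, Slc18b1, Slc7a6os and the antisense gene Slc6a19os fall just outside the naming rule, and each was in all 3 complete lists.

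The libraries came from C57BL/6 embryos at E13.5 and E15.5 of development, with 1 library for each age and genotype. WT embryos were Setd2 f/f, with both copies of Setd2 floxed and no recombinase. KO embryos were PdxcreSetd2 f/f, in which the same floxed alleles met a Cre driven from Pdx regulatory sequence, active in the pancreatic epithelium. Setd2 encodes a histone H3 lysine methyltransferase. Cells were labelled for the epithelial surface protein EpCAM and sorted, so cells without it should be few, and cells outside the Cre lineage keep the gene. The data analysed were lists in which a gene either appears or does not. At E13.5 the lists named 25463 genes in WT and 26341 in KO, and at E15.5 there were 25474 in KO. For E15.5 WT the list covered 187 annotated genes before its end, of which 1, Slc7a7, was a member. Levels, cells and sequencing depth were not analysed here, so a gene that is not listed may have been missed. Each group had 1 library, so differences have no replicate check and were not tested. Setd2 was in the 3 complete lists, which gives no level and does not check the deletion.

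Transporters of these families do 3 kinds of work. Those in the plasma membrane clear transmitters from outside the cell or bring in amino acids for growth and protein synthesis. Vesicular transporters load transmitter into secretory vesicles and therefore mark what a neuron or endocrine cell can release. Amino acid exchangers of the Slc7 family mostly pair with a heavy chain, Slc3a1 or Slc3a2, which takes them to the membrane. In the pancreas, acinar cells need large amounts of amino acids to make digestive enzymes, and islet cells share much of the synthesis and vesicle machinery of neurons.

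Of the 54 genes, WT at E13.5 listed 47 (87%), KO at E13.5 listed 49 (90.7%) and KO at E15.5 listed 42 (77.8%). Among all 22028 annotated protein-coding genes the shares were 77.7%, 77.9% and 75.9%, and among 317 other protein-coding Slc genes 92.1%, 94% and 90.2%. All 3 complete lists held 38 members, and 15 were in 1 or 2 of them. These 15 are 28.3% of the 53 listed members, beside 25.1% of all listed genes, 10.6% of protein-coding genes and 9.15% of the other Slc genes. The E15.5 KO list had no member of its own. The same held few genes of the wider sets: 1448 of 29652 listed genes, 281 of 17949 protein-coding genes and 5 of 306 other Slc genes were in E15.5 KO alone. With shares that small, 0 of 53 members says little. By family, the exceptions were 0 of 7 in Slc1, 7 of 19 in Slc6, 3 of 15 in Slc7, 3 of 9 in Slc17, 1 of 3 in Slc18, and the single gene of Slc32. These families are small, and other Slc families also varied. Slc38 had 11 of 11 genes in all 3 lists, Slc39 had 14 of 14, and Slc22 had 13 of 25. Slc6a18, a neutral amino acid transporter of the kidney tubule, was in no complete list.

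**Figure D1:**
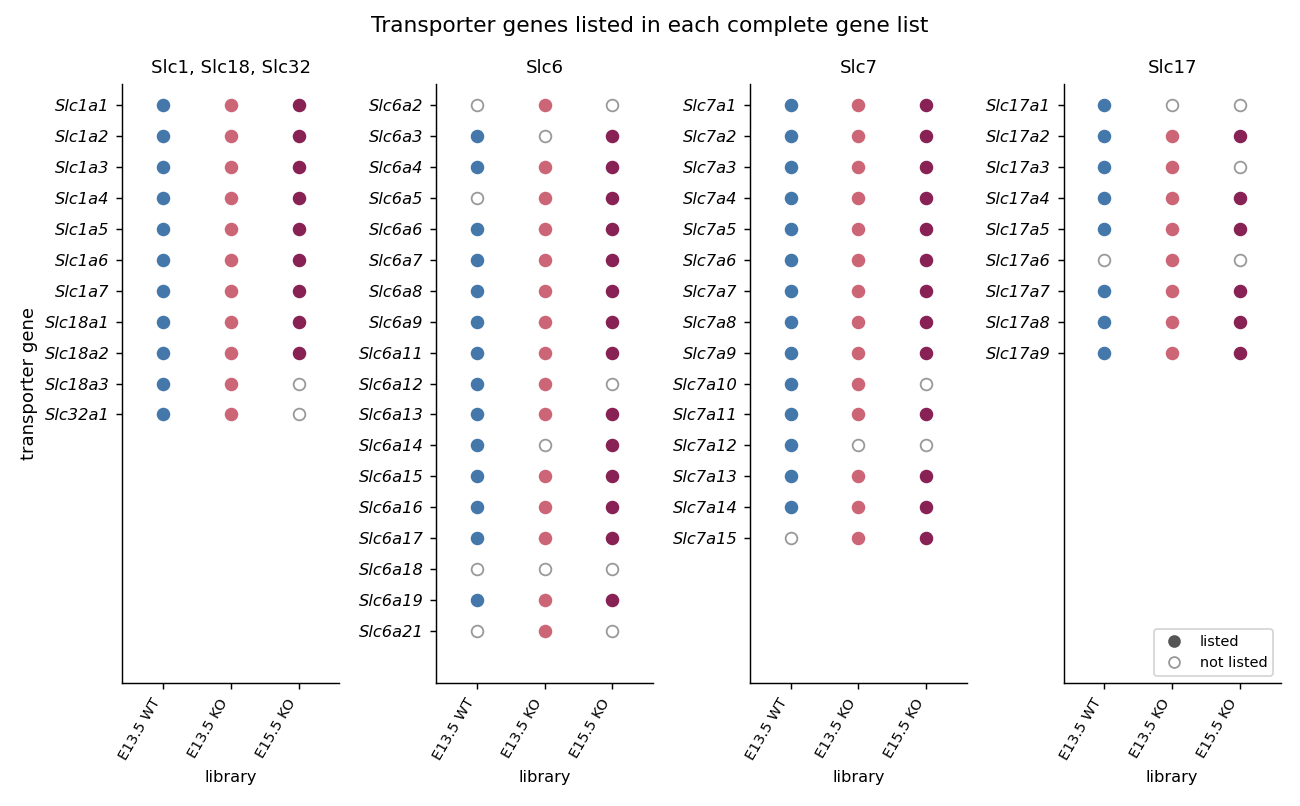
Each row is a transporter gene and each column a complete gene list, arranged by Slc family. A filled circle marks a listed gene and an open circle one that was not listed; the 7 Slc1 genes were in every column, and the open circles were most numerous in Slc6 and in the E15.5 KO column.

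Uptake of glutamate was listed uniformly, and so was that of cationic amino acids, given with the Slc7 genes. Slc1a1, Slc1a2, Slc1a3, Slc1a6 and Slc1a7, the 5 sodium-driven glutamate transporters, were in each of the 3 complete lists. Among them are the main glial carriers, Slc1a2 and Slc1a3, and Slc1a7, best known from the retina. The 2 neutral amino acid exchangers of the family, Slc1a4 and the glutamine carrier Slc1a5, were also in all 3. So were the 6 enzymes of glutamate and glutamine metabolism on the partner list, among them the glutaminase Gls2 and the glutamine synthetase Glul.

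Vesicular glutamate transporters were less uniform. Slc17a7 and Slc17a8 were in all 3 complete lists. Slc17a6 (ENSMUSG00000030500, chromosome 7, 51622006 to 51671119, plus strand), the vesicular glutamate transporter of many subcortical and sensory neurons, was in the E13.5 KO list and in neither E13.5 WT nor E15.5 KO. A gene of unproven status inside its span, Gm45072, was in no complete list. The other vesicular and lysosomal carriers of the family, Slc17a9, which loads ATP into vesicles, and Slc17a5, which exports sialic acid from lysosomes, were in all 3.

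GABA transport was listed more fully at E13.5 than in the E15.5 KO library. Slc32a1, which loads GABA and glycine into vesicles, was in both E13.5 lists and not in E15.5 KO (ENSMUSG00000037771, chromosome 2, 158610767 to 158615748, plus strand). An antisense gene whose exons overlap it, Gm14205, was in no complete list. Among the plasma membrane GABA carriers, Slc6a11 and Slc6a13 were in all 3. Slc6a12, the betaine and GABA carrier of kidney and liver, was in both E13.5 lists only (chromosome 6, 121343076 to 121365775). The GABA-making enzyme Gad1 was in all 3 lists, whereas Gad2 was in both KO lists and not in E13.5 WT. Abat and Aldh5a1, which break GABA down, were in all 3. Listing of the vesicular carrier therefore did not run with that of either synthetic enzyme.

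For glycine, Slc6a9, the more widely expressed carrier, was in all 3 lists. Slc6a5, the carrier of glycine-releasing neurons, was in both KO lists and not in E13.5 WT (chromosome 7, 49910146 to 49963856). Gad2 had the same listing as Slc6a5. That listing, both KO lists only, was held by 2 of the 53 listed members. Beside them it was held by 1167 of 29652 listed genes, 229 of 17949 protein-coding genes and 3 of 306 other Slc genes. The 5 enzymes of glycine synthesis and cleavage, Shmt1, Shmt2, Gldc, Amt and Gcsh, were in all 3.

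Vesicular monoamine carriers were constant and plasma membrane ones were not. Slc18a1, the form of neuroendocrine cells, and Slc18a2, the neuronal form, were in all 3 lists. Slc6a4, the serotonin transporter, was in all 3 as well, together with Tph1, Tph2 and Ddc, which make serotonin. Slc6a3, the dopamine transporter, was in E13.5 WT and E15.5 KO and not in E13.5 KO (chromosome 13, 73536747 to 73578672). Slc6a2, the noradrenaline transporter, was in E13.5 KO alone (chromosome 8, 92960079 to 93001667). Th, the first enzyme of catecholamine synthesis, was in all 3. Dbh, which turns dopamine into noradrenaline, was in both E13.5 lists and not in E15.5 KO, and Pnmt, which makes adrenaline, was in E13.5 KO alone like Slc6a2. The E15.5 WT list covers Th and Dbh and held both. Maoa and Maob, which degrade monoamines, were in all 3.

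The acetylcholine pair was listed together. Slc18a3, which loads acetylcholine into vesicles, and Chat, which makes it, were both in the E13.5 lists of WT and KO and both missing from E15.5 KO. Slc18a3 (ENSMUSG00000100241) has 1 exon of 2413 bases on the minus strand of chromosome 14, from 32462438 to 32464850. It lies whole inside intron 1 of Chat, on the same strand and with no exon overlap. How reads from that intron were counted is not given in the sources used here, so the 2 listings may not be independent. Slc5a7, the choline carrier that supplies Chat, and the esterases Ache and Bche were in all 3.

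**Figure D2:**
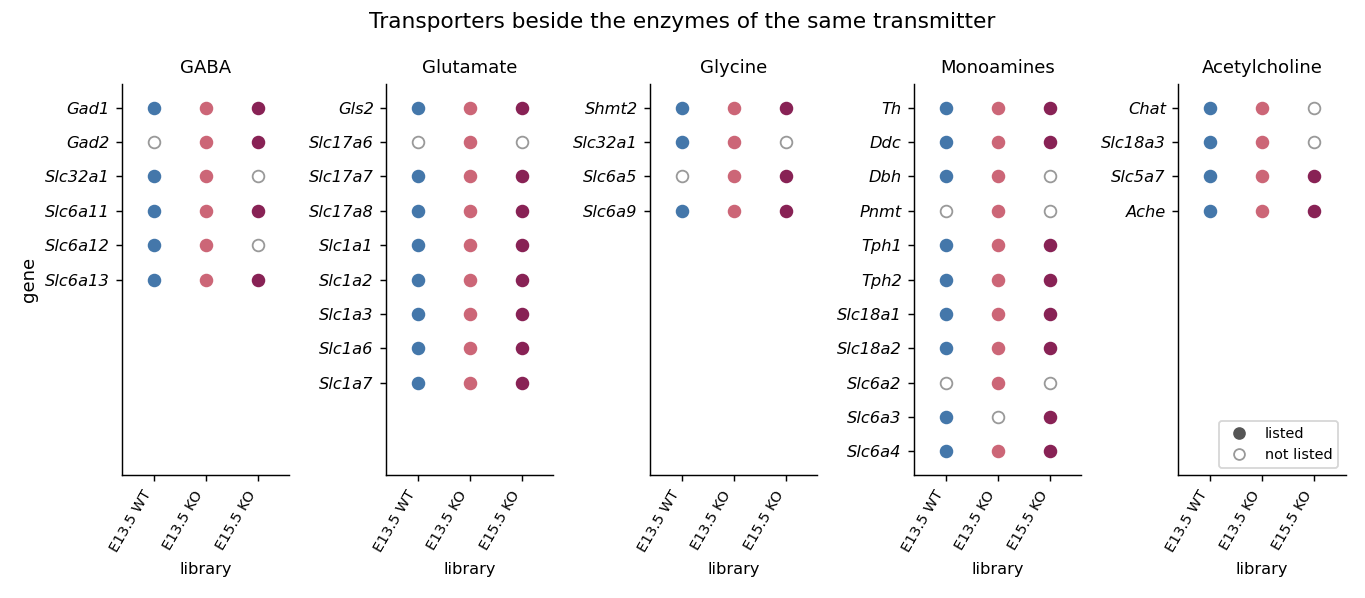
Transporters and the enzymes that make or degrade the same transmitter are rows, and the 3 complete lists are columns, with filled circles for listed genes. Glutamate uptake is filled throughout, Chat and Slc18a3 share an open circle in E15.5 KO, and Pnmt and Slc6a2 share open circles in E13.5 WT and E15.5 KO.

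Among the Slc7 genes the cationic amino acid group was listed uniformly and the light chains were not. The 5 genes of the cationic group were in all 3 lists: Slc7a1, Slc7a2 and Slc7a3, which carry arginine and lysine, and their relatives Slc7a4 and Slc7a14. Of the 10 light chains and their relatives, 7 were in all 3. Among these were Slc7a5 and Slc7a8, which carry large neutral amino acids, Slc7a11, the cystine and glutamate exchanger, and Slc7a9, the cystine carrier of kidney and gut. Slc7a6 and Slc7a7, which exchange cationic for neutral amino acids, were in all 3, and Slc7a7 was also in the E15.5 WT list, which makes it the 1 member seen in 4 of 4 libraries. Slc7a13, an acidic amino acid carrier of the kidney, was in all 3. The heavy chains Slc3a1 and Slc3a2, and Tmem27, which accompanies Slc6a19 to the membrane, were in all 3.

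The 3 exceptions in the Slc7 family each had a different listing. Slc7a10, a carrier of small neutral amino acids including D-serine, was in both E13.5 lists and not in E15.5 KO (chromosome 7, 35186385 to 35201114). Its exons overlap those of Lrp3 on the opposite strand, which was in all 3 lists, and the strand setting of the counting is not given in the sources used here. Slc7a12 was in E13.5 WT alone (chromosome 3, 14480697 to 14505830), and Slc7a15 was in both KO lists and not in E13.5 WT (chromosome 12, 8528483 to 8599066).

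In the Slc6 family, Slc6a6 for taurine, Slc6a8 for creatine, Slc6a7 for proline, the neuronal neutral amino acid carriers Slc6a15 and Slc6a17, and Slc6a19 of kidney and gut were in all 3 lists. Slc6a14, an epithelial carrier of neutral and cationic amino acids, was in E13.5 WT and E15.5 KO and not in E13.5 KO (X chromosome, 21714896 to 21742355), the same listing as Slc6a3. Of the 2 members with no assigned substrate here, Slc6a16 was in all 3 and Slc6a21 was in E13.5 KO alone (chromosome 7, 45277513 to 45288998). Other amino acid transporter families on the partner list, among them 11 Slc38 genes, held 22 of 23 genes in every complete list, and Slc36a3 was in none.

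The organic anion carriers Slc17a1 to Slc17a4, known from kidney and liver, sit side by side on chromosome 13 between 23806993 and 23915009. Slc17a2 and Slc17a4 were in all 3 lists. Slc17a3 was in both E13.5 lists and not in E15.5 KO (23839434 to 23860716). Slc17a1 was in E13.5 WT alone (23867750 to 23895730), although its end lies 159 bases from Slc17a4. Among other neighbours, Slc6a13 and Slc6a12 are 5.34 kb apart and Slc6a16 and Slc6a21 4.14 kb, and in each of these pairs the first was in all 3 lists and the second was not.

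Genotypes at the earlier age were compared first, KO against WT at E13.5. Of 53 members listed in either library, 6 were in KO only (among them Slc6a2, Slc6a5, Slc6a21, Slc7a15 and Slc17a6) and 4 in WT only (Slc6a3, Slc6a14, Slc7a12 and Slc17a1). The 6 are 11.3%, beside 9.72% of all listed genes, 3.17% of protein-coding genes and 2.99% of the other Slc genes in KO only. The 4 are 7.55%, beside 6.61%, 2.91% and 0.997% of the same sets in WT only. Together, 18.9% of members were listed in 1 genotype only, beside 16.3% of all listed genes, 6.08% of protein-coding genes and 3.99% of the 301 other Slc genes. The share of members was thus near that of all genes and above that of protein-coding genes, to which all members belong. Among the 6 in KO only were the noradrenaline carrier, 1 of the 2 glycine carriers and 1 of the 3 vesicular glutamate carriers. Slc6a9, Slc17a7 and Slc17a8, the rest of those 2 classes, were in both lists. Among the 4 in WT only was the dopamine carrier.

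Ages were then compared within the mutant, E15.5 against E13.5. Of 51 members in either list, 9 were at E13.5 only (among them Slc6a2, Slc6a12, Slc6a21, Slc7a10, Slc17a3, Slc17a6, Slc18a3 and Slc32a1) and 2 at E15.5 only (Slc6a3 and Slc6a14). The 9 are 17.6%, beside 10.4% of all listed genes, 5.03% of protein-coding genes and 5.61% of the other Slc genes at E13.5 only. The 2 are 3.92%, beside 7.37% of all listed genes, 2.55% of protein-coding genes and 1.65% of the other Slc genes at E15.5 only. In either direction 21.6% of members differed, beside 17.8% of all listed genes, 7.57% of protein-coding genes and 7.26% of the other Slc genes. Both comparisons use the E13.5 KO list. The 4 members that it alone held, such as Slc6a2, Slc6a21 and Slc17a6, and Slc6a3 and Slc6a14, which it alone of the 3 lacked, therefore count in both. Those 4 are 7.55% of the 53 listed members, beside 5.31% of all listed genes, 1.84% of protein-coding genes and 1.96% of the other Slc genes. Age cannot be told apart from library, and the WT libraries give no comparison between ages for 53 of the 54 genes.

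**Figure D3:**
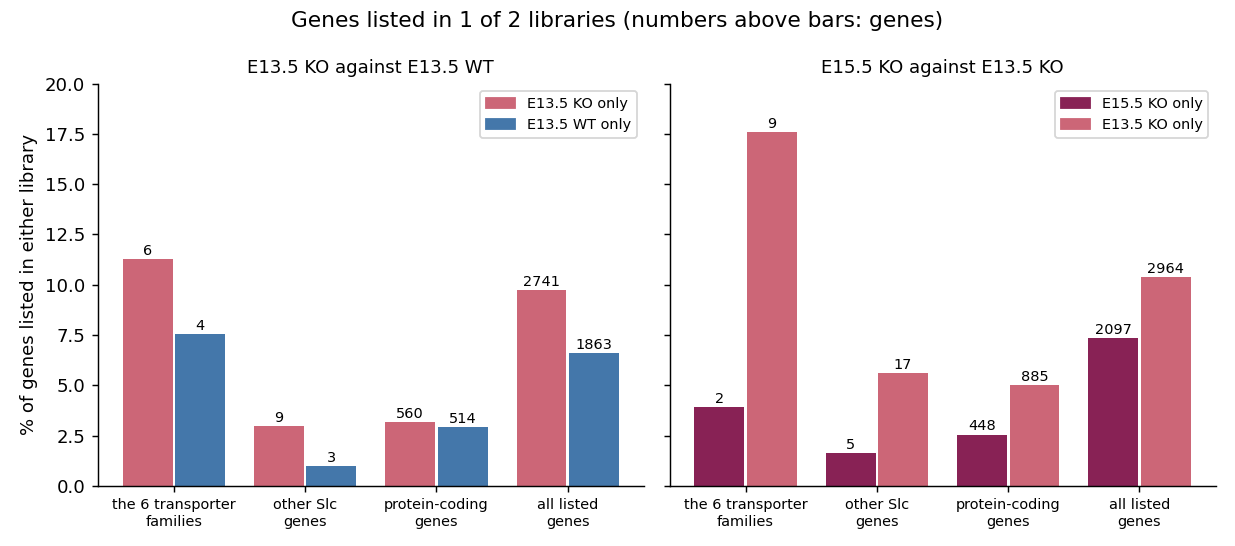
Bars give the percentage of genes listed in either library of a comparison that were in only 1 of them, by direction, with the number of genes above each bar. In the right panel 9 of the transporter genes were in E13.5 KO only and 2 in E15.5 KO only. In both panels the bars of the transporter families stand above those of other Slc genes. Beside all listed genes they are 11.3% against 9.72% (KO only) and 7.55% against 6.61% (WT only) on the left. On the right they are 17.6% against 10.4% for E13.5 KO only and 3.92% against 7.37% for E15.5 KO only.

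Markers of cells outside the epithelium ran in the same direction between the E13.5 lists and the E15.5 KO list. The 5 epithelial, 6 progenitor and ductal, 10 endocrine and 7 acinar markers matched by symbol were in every complete list, as the label of the tissue would have it. Of 38 markers of neurons, neural crest and glia, endothelium, mesenchyme, and erythroid and immune cells, E13.5 WT and E13.5 KO held 38 each and E15.5 KO held 31. The 7 in both E13.5 lists and not in E15.5 KO are 18.4% of these markers, beside 4.69% of all listed genes and 3.09% of protein-coding genes with that listing, and the markers were chosen with earlier results of these data known. Among the 7 missing from E15.5 KO were Foxd3 of the neural crest, Cdh5 and Tie1 of endothelium, Nkx3-2 of mesenchyme, and Hbb-bh1 and Gata1 of erythroid cells. The E15.5 WT list ends before all of the 7, so age cannot be told apart from library or genotype. Dbh, a partner gene with the same listing, was in the E15.5 WT list. Neuronal genes such as Elavl3, Elavl4, Snap25, Prph and Stmn2 were in all 3. Of the 9 markers of kidney, liver and gut epithelium, 7 were in every complete list, Umod was in E13.5 KO alone and Slc22a6 in none. The part of such cells in the listing of the transporters was not tested. Of 55 distinct partner genes, 50 were in all 3 lists, 1 was in none, and Gad2, Dbh, Pnmt and Chat differed.

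Both E13.5 lists held 5 members that E15.5 KO did not, 9.43% of the 53 listed members, beside 4.69% of all listed genes, 3.09% of protein-coding genes and 3.59% of the other Slc genes. Their promoter windows are printed because they are the largest group with one shared listing apart from the 38, and to show how unlike their start regions are. Each runs 5′ to 3′ along the gene from 250 bases before a RefSeq start site to 50 after it, on GRCm38.p6, the window nearest the annotated gene start being taken. Capitals mark CpG dinucleotides.
Slc6a12 (chr6:121342826-121343125, plus strand): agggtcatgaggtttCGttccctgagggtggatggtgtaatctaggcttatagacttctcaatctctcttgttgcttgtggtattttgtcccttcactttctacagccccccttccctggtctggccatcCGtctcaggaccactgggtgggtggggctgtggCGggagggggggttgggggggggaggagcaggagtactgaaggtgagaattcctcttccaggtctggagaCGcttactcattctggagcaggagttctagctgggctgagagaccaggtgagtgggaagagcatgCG
Slc7a10 (chr7:35186135-35186434, plus strand): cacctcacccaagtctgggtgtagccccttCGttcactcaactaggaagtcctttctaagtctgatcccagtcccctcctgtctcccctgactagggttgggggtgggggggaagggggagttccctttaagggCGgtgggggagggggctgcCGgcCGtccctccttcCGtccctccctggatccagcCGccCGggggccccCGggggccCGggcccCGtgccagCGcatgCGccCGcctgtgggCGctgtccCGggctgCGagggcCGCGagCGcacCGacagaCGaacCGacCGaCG
Slc17a3 (chr13:23839184-23839483, plus strand): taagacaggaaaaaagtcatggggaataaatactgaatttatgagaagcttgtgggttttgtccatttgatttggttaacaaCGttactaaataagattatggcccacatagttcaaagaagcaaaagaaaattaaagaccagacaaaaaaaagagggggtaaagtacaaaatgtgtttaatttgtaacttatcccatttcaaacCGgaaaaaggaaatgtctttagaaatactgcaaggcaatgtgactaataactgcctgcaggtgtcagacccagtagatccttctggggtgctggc
Slc18a3 (chr14:32464801-32465100, minus strand): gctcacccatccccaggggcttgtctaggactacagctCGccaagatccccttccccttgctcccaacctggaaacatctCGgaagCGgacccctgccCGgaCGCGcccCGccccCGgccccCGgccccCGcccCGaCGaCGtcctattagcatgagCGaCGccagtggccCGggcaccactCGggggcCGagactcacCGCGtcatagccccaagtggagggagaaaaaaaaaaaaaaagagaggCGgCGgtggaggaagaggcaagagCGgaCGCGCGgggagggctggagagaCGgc
Slc32a1 (chr2:158610508-158610807, plus strand): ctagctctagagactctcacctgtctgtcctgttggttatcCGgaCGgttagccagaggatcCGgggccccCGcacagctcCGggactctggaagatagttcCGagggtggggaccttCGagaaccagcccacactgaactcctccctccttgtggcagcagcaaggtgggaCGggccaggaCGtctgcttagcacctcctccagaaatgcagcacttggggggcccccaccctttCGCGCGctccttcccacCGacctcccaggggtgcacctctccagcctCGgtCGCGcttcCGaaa

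The 5 windows ranged from 2 CpG in Slc17a3 to 27 in Slc18a3. Slc32a1 had 17, Slc7a10 had 24 and Slc6a12 had 5. The GC content was 36.7% in Slc17a3 and 56.3% in Slc6a12, and it was 63.3% in Slc32a1, 67% in Slc18a3 and 70.7% in Slc7a10. The windows thus shared no base composition.

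RefSeq windows were found by symbol for 37 of the 54 members, 12 of them among the 15 with differing listing. The 25 members in all 3 lists had a median of 13 CpG (range 1 to 41) and the 12 others 8 (range 2 to 27), beside a median of 7 over all 32851 windows. The 6-base GC box GGGCGG, on either strand, was in 18 of the 25 (72%) and in 5 of the 12 (41.7%), beside 35.7% of all windows. The TATA motif TATAAA, on either strand, was in 1 of the 25 (Slc1a3) and 1 of the 12 (Slc7a15), beside 13.6% of all windows. The E-box CAGCTG, which reads the same on both strands, was in 7 of the 25 (28%) and in 0 of the 12, beside 16.3%. For 32 of the 37 the window lay within 500 bases of the annotated gene start. A match is a run of letters and not a bound site.

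Members in all 3 lists had a median gene span of 36.3 kb (6.81 to 551 kb) and a median longest transcript of 3678 nt. The 15 with differing listing had 27.5 kb (2.41 to 70.6 kb) and 2838 nt. Protein-coding genes overall ran the same way, with medians of 23.6 kb and 3262 nt for 16040 genes in all 3 lists and 10.8 kb and 2082 nt for 1909 that differed. Slc18a3 and Slc32a1 have the shortest spans of the 15, 2413 and 4982 bases, and Slc7a15 the longest, 70584 bases. Another annotated gene overlapped the span of 25 members, 6 of them among the 15. Of these 6, Slc7a10 and Slc32a1 share exon sequence with the other gene, and Slc6a14, Slc7a15, Slc17a6 and Slc18a3 do not. Reads could be shared where exons overlap. Elsewhere sharing would depend on how intron reads were counted, which is not given in the sources used here.

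**Figure D4:**
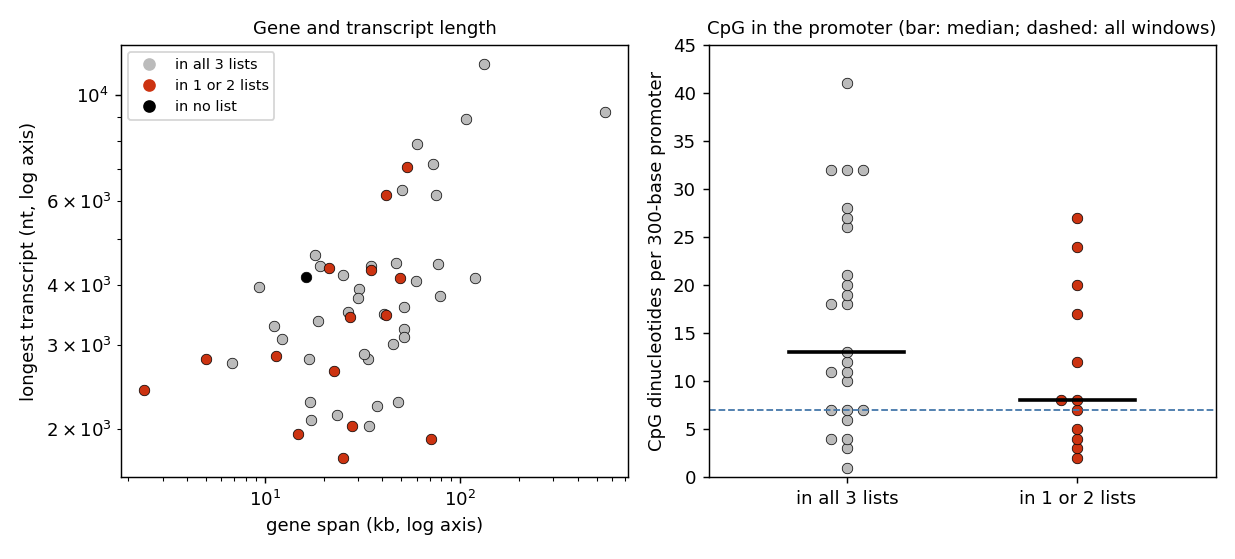
Left, gene span against the longest annotated transcript, both on log axes, 1 point per transporter gene, coloured by the number of complete lists that held it. Right, CpG dinucleotides in the 300-base promoter window, with black bars at the medians of 13 and 8 and a dashed line at 7, the median of all windows; the groups overlap widely in both panels.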

How the data were processed

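The 4 libraries were taken from the labels as 4 groups of 1. The files the authors deposited give a gene identifier and a symbol per line, with no measured value, so the unit is presence on a list. Seurat and mm10 are named, with no role, per the submitters' processing notes. Aligner, annotation release, strand setting and listing rule were not given in the sources used here. For E15.5 WT the list ends inside an identifier after 167 complete lines and was used only up to there.

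Identifiers were matched to GENCODE mouse M21 (GRCm38, which is mm10). Of 29652 identifiers in any complete list, 29604 matched, as did all 54 members. Members came from the symbol rule. Substrate classes, partner genes and markers were lists written from general knowledge, and members and lists were chosen with earlier results of these data known. Slc6a21 was added to the classes after the lists were read. All members are counted, and a few genes are not reported here by name. Genes listed in 1 of 2 libraries were counted over those in either, beside the same counts for other Slc, protein-coding and all listed genes. Depth is unknown, so no interval or limit could be given. Counting was tested on simulated lists. Alternatives were annotation symbols, a wider symbol rule, and sets without overlapping genes or without Slc17a1 to Slc17a5. Python 3.11.15 and Matplotlib 3.10.9 were used.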

Additional observations from a re-analysis of the deposited data

How the results depend on the processing

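The 9 member counts were recomputed under 4 alternatives, and 30 of the 36 values stayed within 1.5 times the reported count. Many of these could not have moved. All 54 member symbols equal those of the annotation, so annotation symbols could change no count. The wider rule adds Slc6a20a, Slc6a20b and Slc18b1, each in all 3 complete lists, so it could change no count of differing members. All 6 values that moved came from leaving out the members that overlap another gene, which leaves 29 genes. Listed members then numbered 24 for WT and 25 for KO at E13.5, and 21 for KO at E15.5. Between the KO ages 6 then differed, 5 of them listed only at E13.5 and 1 only at E15.5. These counts are smaller because fewer genes were counted. The share of genes listed in 1 library only depended on the background: at E13.5 it was 16.3% of all listed genes, 6.08% of protein-coding genes and 3.99% of other Slc genes, and between the KO ages 17.8%, 7.57% and 7.26%. Under each alternative the KO lists held more members at E13.5 than later, and at E13.5 the members in KO only outnumbered those in WT only. Without overlapping members the latter margin was 4 against 3. The whole lists ran the same way, with 26341 genes for KO at E13.5 and 25474 at E15.5. At E13.5, 2741 of all listed genes were in KO only and 1863 in WT only. No paired analysis was possible because no group has a second library.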
